A study of Mus musculus with 2 samples.

Results

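The genes described here encode the machinery of macroautophagy in mouse mammary epithelial cells (MECs). They were chosen by name, from a list of 39 symbols that covers initiation, the lipid kinase complex, conjugation, the LC3 and GABARAP proteins, cargo receptors and mitophagy. Of these, 38 were among the 25810 gene symbols of the deposited files. *Atg14*, which encodes a subunit of the lipid kinase complex, was not matched, and its expression is not analysed here. All 38 genes reached the minimum set for a comparison, which was 1 RPM (reads per 1000000 mapped reads) or more in at least one library.

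In macroautophagy a cell encloses part of its cytoplasm in a double membrane, the autophagosome, which then fuses with a lysosome. The ULK1 kinase complex starts the process, the class III phosphatidylinositol 3-kinase (PI3K) complex marks the growing membrane with the lipid PI3P, and 2 conjugation reactions attach LC3 and GABARAP proteins to it. Cargo receptors bind both the load and the LC3 or GABARAP protein, and mitophagy is the form of the process that removes mitochondria. In the mammary gland, the milk-secreting alveolar epithelium is removed after lactation, and lysosomes take part in that removal.

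The series held 2 RNA-Seq libraries, 1 from wild-type (WT) and 1 from *Igfbp7*-/- mice, both of lactation day 3. The *Igfbp7*-/- mice lack the first coding exon of the gene in all tissues. The labels give the background of both groups as C57BL/6, whereas the study's methods name CD1 for the knockout, and the number of animals behind a library was not given in the sources used here. The MECs came from inguinal glands and had been depleted of lineage positive cells by magnetic separation, with antibodies to the leukocyte marker CD45, the endothelial marker CD31 (CD35 in the labels) and the erythroid marker Ter119. With 1 library per genotype no test of the genotype was possible, so each gene is given by its values in both libraries. A gene is called higher or lower below when the ratio of *Igfbp7*-/- to WT RPM, with 0.1 RPM added to both, was at least 1.5 in either direction. The intervals are 95% Clopper-Pearson intervals on read pairs, cover counting error only and leave out differences between animals.

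The libraries held 34327854 (WT) and 35016847 (*Igfbp7*-/-) mapped reads, as the ratio of count to RPM gives them, of which 82.3% and 72.3% fell on listed genes, and 3 reads were worth 0.0874 and 0.0857 RPM. *Igfbp7* itself had 152 and 1.06 RPM in WT and *Igfbp7*-/-, which matched the labels. *Csn2*, the milk protein β-casein, was abundant in both, with 53087 and 19970 RPM. Transcripts of cells that the depletion should have removed were still present, and those of leukocytes and endothelial cells were mostly lower in *Igfbp7*-/-. The leukocyte gene *Ptprc* had 43.5 and 18.1 RPM and the endothelial gene *Pecam1* 323 and 88.9 RPM. Over whole marker lists, 7 of 8 endothelial, 9 of 11 leukocyte, 7 of 8 myoepithelial, 4 of 6 adipocyte and 4 of 8 fibroblast genes that reached 1 RPM were lower in *Igfbp7*-/-. Levels were also summed over all deposited genes of each list, those below 1 RPM included. In the same order, the sums were 1334 and 429, 1225 and 832, 3284 and 1070, 629 and 235, and 9135 and 4683 RPM in WT and *Igfbp7*-/-, respectively. In these lists 1 adipocyte gene (*Lep*) and 1 fibroblast gene (*Fbln1*) were higher, and 3 of the 8 fibroblast genes had ratios above 1. So did 2 leukocyte genes (*Cd14* and *Itgam*) and 1 myoepithelial gene (*Oxtr*), all within 1.5 times. *Cd14* alone made up 470 and 677 RPM of the leukocyte sums in WT and *Igfbp7*-/-. Over all genes with at least 1 RPM, 23.0% were lower and 21.4% higher. None of 4 erythroid markers differed by 1.5 times (1066 and 1244 RPM over the list). Of 8 luminal secretory markers, 4 were lower and 2, *Krt8* and *Krt18*, were higher, with 87680.5 and 34038.6 RPM in sum. In such bulk samples fewer cells of a type and less RNA per cell cannot be told apart, and the part of these cell mixtures in the results below was not tested.

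Among the 38 autophagy genes, 8 were higher in *Igfbp7*-/- MECs and 1 was lower, while 29 stayed within 1.5 times. Over all 14026 genes with at least 1 RPM, 21.4% were higher and 23.0% lower, that is 44.5% past the threshold. The 8 higher members (21.1%) were thus a share near that of all genes, and the 1 lower member (2.63%) was a smaller share. The median log2 ratio of the members was 0.20, with quartiles of -0.02 and 0.56, beside a median of 0.035 and quartiles of -0.52 and 0.51 over all genes. Of the 31 members that reached 10 RPM, 7 were higher and none was lower, where 20.7% and 20.4% of 8201 genes at that level were higher and lower (41.1% together). The counting interval left out a ratio of 1 for 24 of the 38 genes, 17 of them with a ratio above 1 and 7 below 1. The same count was not made over all genes, so these numbers have no background and describe the members only.

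The genes that were higher came from 5 of the 8 roles and included *Atg13* and *Rb1cc1* of the ULK1 complex, *Ambra1*, *Atg2a*, *Atg9a*, *Atg10*, *Atg16l2* and *Atg4d*. The single lower gene was *Atg9b*. All 5 LC3 and GABARAP genes had ratios below 1 without passing the threshold, and no cargo receptor or mitophagy gene passed it. The median log2 ratio was 0.44 in the ULK1 complex, 0.38 among PI3P effectors and ATG9 vesicle genes, 0.32 among cargo receptors, 0.26 in the conjugation machinery and 0.24 in mitophagy. It was 0.21 in the PI3K complex, 0.20 among the ATG4 proteases and -0.46 in the LC3 and GABARAP family, the only role with a median below 0. The members closest to the threshold were *Atg10* and *Atg9a* inside it, with ratios of 1.51 and 1.59, and *Atg7* and *Gabarapl2* outside it, with 1.49 and 0.67.

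**Figure D1:**
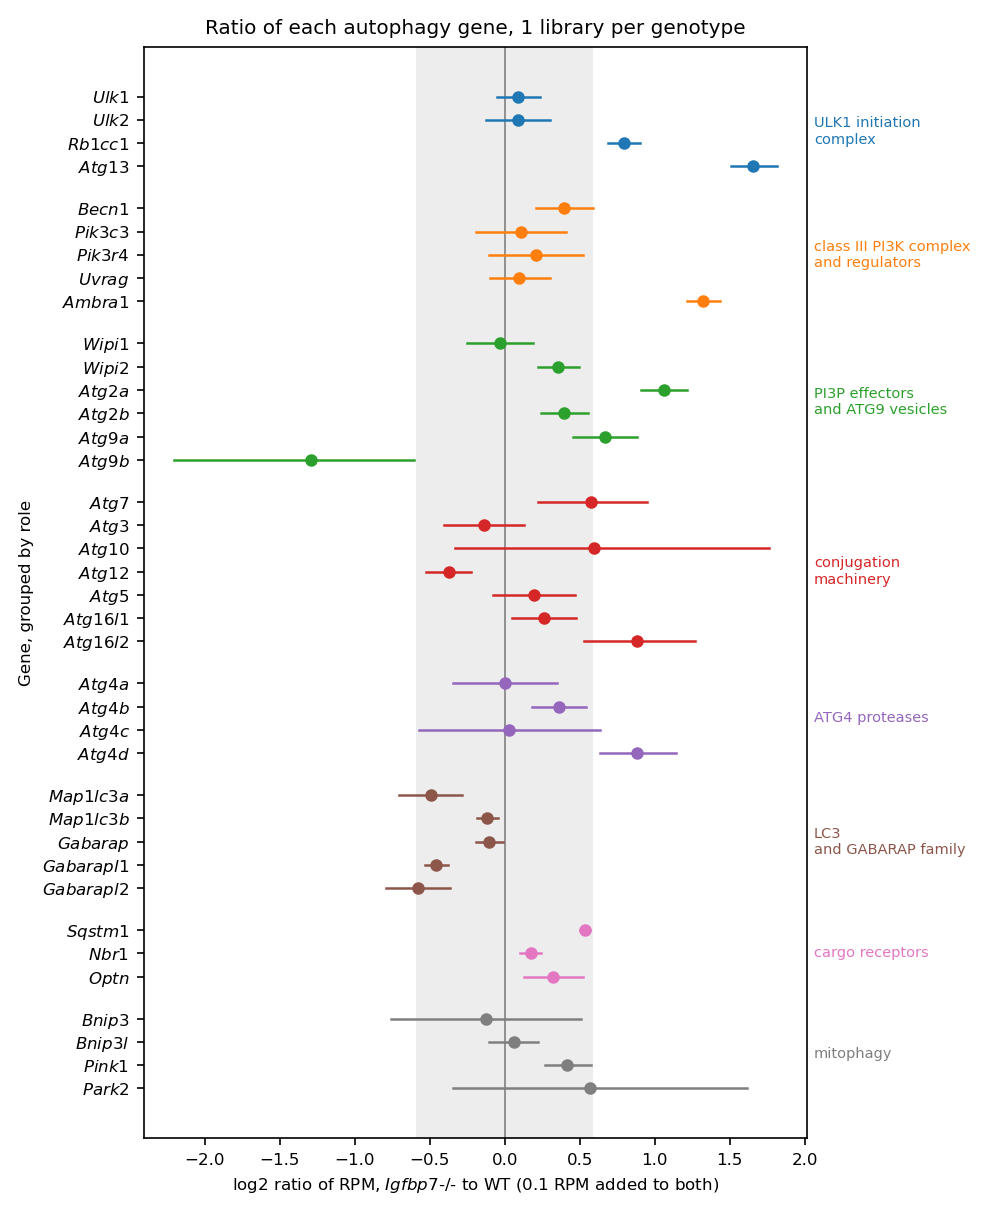
Log2 ratio of RPM, *Igfbp7*-/- to WT, for the 38 autophagy genes grouped by role. Points are ratios with 0.1 RPM added to both libraries, lines are 95% Clopper-Pearson intervals on read pairs (counting error only), and the grey band is the range within 1.5 times. *Atg13* (1.66), *Ambra1* (1.32) and *Atg2a* (1.06) lie farthest to the right, and all 5 LC3 and GABARAP genes lie left of 0.

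Within the ULK1 complex, the kinases and their partners differed. *Ulk1*, the kinase that starts autophagy, had 44.2 and 47.1 RPM in WT and *Igfbp7*-/-, and its paralog *Ulk2* had 20.3 and 21.6 RPM. Both log2 ratios were 0.09, with intervals of -0.05 to 0.23 for *Ulk1* and -0.13 to 0.30 for *Ulk2*. The scaffold *Rb1cc1* and the adaptor *Atg13* were higher instead by deposited RPM. *Atg101*, a further subunit, was not matched under that symbol. *Rb1cc1*, which encodes the scaffold FIP200, had 66.0 RPM (2264 reads) in the WT library and 115 RPM (4010 reads) in the *Igfbp7*-/- library, for a log2 ratio of 0.80 (0.69 to 0.90). Centred on genes of similar length, *Rb1cc1* was at 0.48, within 1.5 times. *Atg13*, the adaptor that links ULK1 to FIP200, had 26.4 RPM (907 reads) and 83.6 RPM (2927 reads), a log2 ratio of 1.66 (1.51 to 1.82). This was the highest ratio of the 38 genes, a 3.16-fold difference between the libraries.

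In the PI3K complex, only the regulator stood apart. *Pik3c3*, the catalytic subunit Vps34, had 10.5 and 11.3 RPM in WT and *Igfbp7*-/-, and *Pik3r4*, its regulatory subunit Vps15, had 9.18 and 10.6 RPM. *Uvrag*, the subunit that stands in for Atg14 in complexes that act on endosomes, had 23.0 and 24.6 RPM. The intervals of all 3 included a ratio of 1, with log2 ratios of 0.11, 0.21 and 0.10. *Becn1*, which encodes Beclin 1, had 23.3 and 30.7 RPM, a log2 ratio of 0.39 (0.21 to 0.59) and so within 1.5 times. *Ambra1*, a regulator that binds Beclin 1 and promotes ULK1 activity, had 52.2 RPM (1793 reads) in the WT library and 131 RPM (4583 reads) in the *Igfbp7*-/- library, for a log2 ratio of 1.32 (1.21 to 1.44).

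*Atg13* and *Ambra1* are neighbours on chromosome 2. In the GENCODE M1 annotation of the NCBIM37 build, which is the mm9 assembly that the submitters' processing notes name, *Atg13* lies on the minus strand at chr2:91514775-91550733 and *Ambra1* on the plus strand at chr2:91570291-91759006. Between them lies *Harbi1*, a gene derived from a transposase, at chr2:91551009-91561702, which starts 276 bases from the start of *Atg13* and points away from it. *Harbi1* had 3.52 RPM (121 reads) in the WT library and 11.5 RPM (402 reads) in the *Igfbp7*-/- library, for a log2 ratio of 1.68 (1.27 to 2.13), so that all 3 adjacent genes were higher. The genes farther out had lower ratios. *Arhgap1*, the next gene beyond the 3′ end of *Atg13*, had 103 and 77.7 RPM (log2 ratio -0.41), and *Zfp408*, beyond *Arhgap1*, had 10.7 and 20.1 RPM (0.91). *Ckap5* on that side (0.16) and *Creb3l1* on the side of *Ambra1* (0.13) stayed within 1.5 times, whereas *Mdk* was lower (4.37 and 1.69 RPM, -1.32) and *Dgkz* was just past the threshold (28.1 and 43.3 RPM, 0.62). The higher ratios thus did not extend evenly over the window of 100 kb on either side, which was chosen after the values of both members had been seen.

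The stretch between the starts of *Atg13* and *Harbi1* is shown because both genes are transcribed away from it. The 250 bases before the start of *Atg13*, from the RefSeq promoter table of build GRCm38.p6 (chr2:91710593-91710842, minus strand, a build other than that of the gene positions above), contained 46.4% G and C. In that build the nearer of 2 annotated *Harbi1* starts lies 260 bases away, so the window ends just short of it.

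Atg13: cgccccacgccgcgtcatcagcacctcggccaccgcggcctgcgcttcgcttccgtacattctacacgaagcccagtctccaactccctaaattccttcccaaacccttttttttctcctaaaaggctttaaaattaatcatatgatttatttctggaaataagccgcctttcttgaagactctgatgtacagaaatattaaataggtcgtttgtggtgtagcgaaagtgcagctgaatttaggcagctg

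No letter is in capitals because none of 5 motifs searched on both strands was found in it. Windows of this length were available for 27025 genes, not limited to those expressed here, and for 31 of the 39 symbols, *Atg14* included. A gene with several annotated starts was counted when any of its windows held the motif. The motif CACGTG is the core of sites bound by TFEB and other basic helix-loop-helix factors. It was found for 6.86% of all genes and for *Atg7*, *Atg3*, *Atg5* and *Bnip3* (12.9% of 31). The motif GTAAACA, bound by forkhead factors such as the FOXO proteins, was found for 3.54% of all genes and for 0 of 31. The core promoter letters TATAAA were found for 14.3% of all genes and for 1 of 31. The motif CCAAT was found in 37.5% and in 10 of 31, and the motif GGGCGG, bound by SP1, in 35.4% and in 21 of 31 (67.7%). A match is a description of letters, and these counts say nothing of binding.

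**Figure D2:**
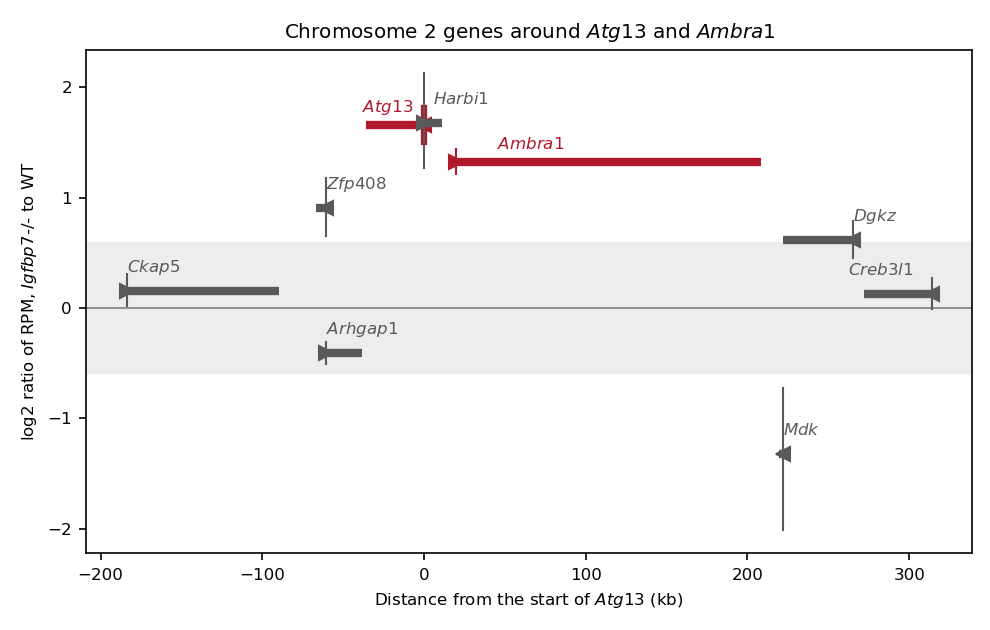
Log2 ratio of RPM, *Igfbp7*-/- to WT, of genes with at least 1 RPM around *Atg13* and *Ambra1*, against the distance from the start of *Atg13* in kb. Thick bars are the genes, arrowheads their starts and direction, thin lines 95% intervals (counting error only), members are in red, and the grey band is the range within 1.5 times. *Atg13* (1.66), *Harbi1* (1.68) and *Ambra1* (1.32) stand above all other genes shown.

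Downstream of the lipid PI3P, the paralogs of the ATG2 and ATG9 pairs differed in their ratios. *Wipi1*, which binds PI3P, had 20.4 RPM in WT and 19.9 RPM in *Igfbp7*-/- (log2 ratio -0.03), while *Wipi2*, which recruits the conjugation machinery, had 43.3 and 55.5 RPM (0.36, interval 0.22 to 0.50). Neither passed the threshold, and centred on genes of similar length they were at 0.13 and 0.23. ATG2 proteins carry lipid to the growing membrane. *Atg2a* (chr19:6241668-6262335) had 29.5 RPM (1013 reads) in the WT library and 61.6 RPM (2158 reads) in the *Igfbp7*-/- library, for a log2 ratio of 1.06 (0.91 to 1.22), whereas *Atg2b* had 34.5 and 45.4 RPM, a log2 ratio of 0.40 (0.24 to 0.55). The intervals of the paralogs did not overlap.

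*Atg9a* and *Atg9b* encode the transmembrane proteins of the vesicles that seed the autophagosome. *Atg9a* had 17.3 RPM (595 reads) in the WT library and 27.6 RPM (966 reads) in the *Igfbp7*-/- library, for a log2 ratio of 0.67 (0.46 to 0.88). *Atg9b* had 2.94 RPM (101 reads) and 1.14 RPM (40 reads), a log2 ratio of -1.29 (-2.20 to -0.61). It was the only member called lower. *Atg9b* (chr5:23889999-23897961, minus strand) overlaps *Nos3*, the endothelial nitric oxide synthase gene on the opposite strand, which had 16.0 RPM in WT and 2.43 RPM in *Igfbp7*-/- (log2 ratio -2.67, -3.20 to -2.24). The library preparation kept the strand, but whether the counting used it was not given in the sources used here, so reads of the overlap may or may not have been kept apart. *Becn1*, *Atg4b*, *Map1lc3a* and *Sqstm1* also overlap a gene on the opposite strand that reached 1 RPM, and those genes had log2 ratios of 0.35, 0.08, 0.34 and 0.45, respectively. Further members, among them *Rb1cc1*, *Atg10* and *Gabarapl1*, overlap annotated small or predicted genes, which were not compared here.

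The conjugation genes were expressed at low to moderate levels and mostly stayed within 1.5 times. *Atg7*, the activating enzyme of both reactions, had 6.29 RPM (216 reads) in the WT library and 9.42 RPM (330 reads) in the *Igfbp7*-/- library, for a log2 ratio of 0.58 (0.22 to 0.95). *Atg3*, the enzyme that passes LC3 to the lipid, had 14.1 and 12.8 RPM (-0.14), and *Atg5*, the acceptor of Atg12, had 12.1 and 13.9 RPM (0.20). The intervals of *Atg3* and *Atg5* included a ratio of 1. *Atg12*, the ubiquitin-like partner of Atg5, was the one conjugation gene whose interval lay below 1, with 49.5 and 38.2 RPM and a log2 ratio of -0.37 (-0.52 to -0.23).

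The paralogs of the ATG16L scaffold, which places the Atg12–Atg5 conjugate on the membrane, differed as well. *Atg16l1* had 18.8 and 22.6 RPM in WT and *Igfbp7*-/-, with a log2 ratio of 0.26 (0.05 to 0.48). *Atg16l2* (chr7:108437906-108450765) had 5.59 RPM (192 reads) and 10.4 RPM (363 reads), a log2 ratio of 0.88 (0.53 to 1.27). *Atg10*, which passes Atg12 to Atg5, was also counted as higher, with 0.82 RPM (28 reads) and 1.29 RPM (45 reads). Its log2 ratio was 0.60 with an interval of -0.33 to 1.76, so a difference was not detectable at this depth.

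ATG4 proteases trim newly made LC3 and GABARAP proteins and later release them from the membrane. *Atg4b*, which had the most reads of the 4 in both libraries, had 26.4 and 33.9 RPM in WT and *Igfbp7*-/-, with a log2 ratio of 0.36 (0.18 to 0.54). *Atg4d* (chr9:21069743-21078812, plus strand) had 11.5 RPM (396 reads) and 21.3 RPM (746 reads), a log2 ratio of 0.88 (0.63 to 1.14). Only *Atg4d* passed the threshold. It overlaps *Kri1* on the opposite strand, which had 4.19 and 8.71 RPM (log2 ratio 1.04), and the same limit applies to the reads in the shared part. *Atg4a* had 8.19 and 8.20 RPM and *Atg4c* 2.77 and 2.83 RPM, with log2 ratios of 0.00 and 0.03. A pseudogene named for *Atg4a* is annotated, and how reads that map to several places were counted was not given in the sources used here.

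The 5 LC3 and GABARAP genes encode the ubiquitin-like proteins that are attached to the membrane. ATG4 cuts each precursor behind a glycine near its end, which then carries the lipid. The last 30 bases of each coding sequence are shown for this site, from the GENCODE M1 transcripts (5′ to 3′, stop codon included), with the last glycine codon in capitals.

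Map1lc3a: tacgcctcccaagaaaccttcGGCttctga
Map1lc3b: gagacattcGGGacagcaatggctgtgtaa
Gabarap: tacagtgatgaaagcgtctatGGTctgtga
Gabarapl1: tacagtgatgaaagtgtctatGGAaaatga
Gabarapl2: tacagcggagagaacacttttGGCttctga

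In 4 of the genes a single codon follows the glycine before the stop, and in *Map1lc3b* 5 codons follow it. The glycine is residue 120 in both LC3 sequences and residue 116 in the GABARAP sequences, which are 117 residues long. Over the aligned coding bases *Gabarap* and *Gabarapl1* were 74.9% identical and *Map1lc3a* and *Map1lc3b* 76.0%, and identity between the subfamilies was 51.4 to 56.1%.

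Per length, in RPKM, that is RPM per kilobase of gene length, these genes were among the most abundant of the list. *Map1lc3b* had 122 RPKM in WT and 113 RPKM in *Igfbp7*-/-, *Gabarapl1* 113 and 82.4 RPKM, and *Gabarap* 107 and 99.6 RPKM. *Gabarapl2* had 39.8 and 26.6 RPKM and *Map1lc3a* 26.3 and 18.7 RPKM. In both libraries the summed level of the 3 GABARAP genes (260 and 209 RPKM) was above that of the 2 LC3 genes (149 and 132 RPKM).

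All 5 were lower in the *Igfbp7*-/- library by deposited RPM, each by less than 1.5 times and each with an interval below a ratio of 1. *Gabarapl2* had 25.9 RPM (889 reads) in the WT library and 17.3 RPM (607 reads) in the *Igfbp7*-/- library, for a log2 ratio of -0.58 (-0.79 to -0.36), and *Map1lc3a* had 25.9 RPM (889 reads) and 18.4 RPM (643 reads), a log2 ratio of -0.49 (-0.71 to -0.29). *Gabarapl1* followed with 200.3 and 146 RPM, a log2 ratio of -0.46 (-0.53 to -0.38). *Map1lc3b* (209 and 193 RPM, -0.12) and *Gabarap* (120.1 and 112 RPM, -0.10) differed least. The direction depended on the scaling of the libraries for some of them: when RPM was scaled to reads on the listed genes, *Map1lc3a*, *Gabarapl1* and *Gabarapl2* were below a ratio of 1 and the other 2 above it, and all 5 were below it under each of the other scalings tried. *Map1lc3a*, *Gabarapl1* and *Gabarapl2* were again the 3 below 1 when ratios were centred on genes of similar length.

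**Figure D3:**
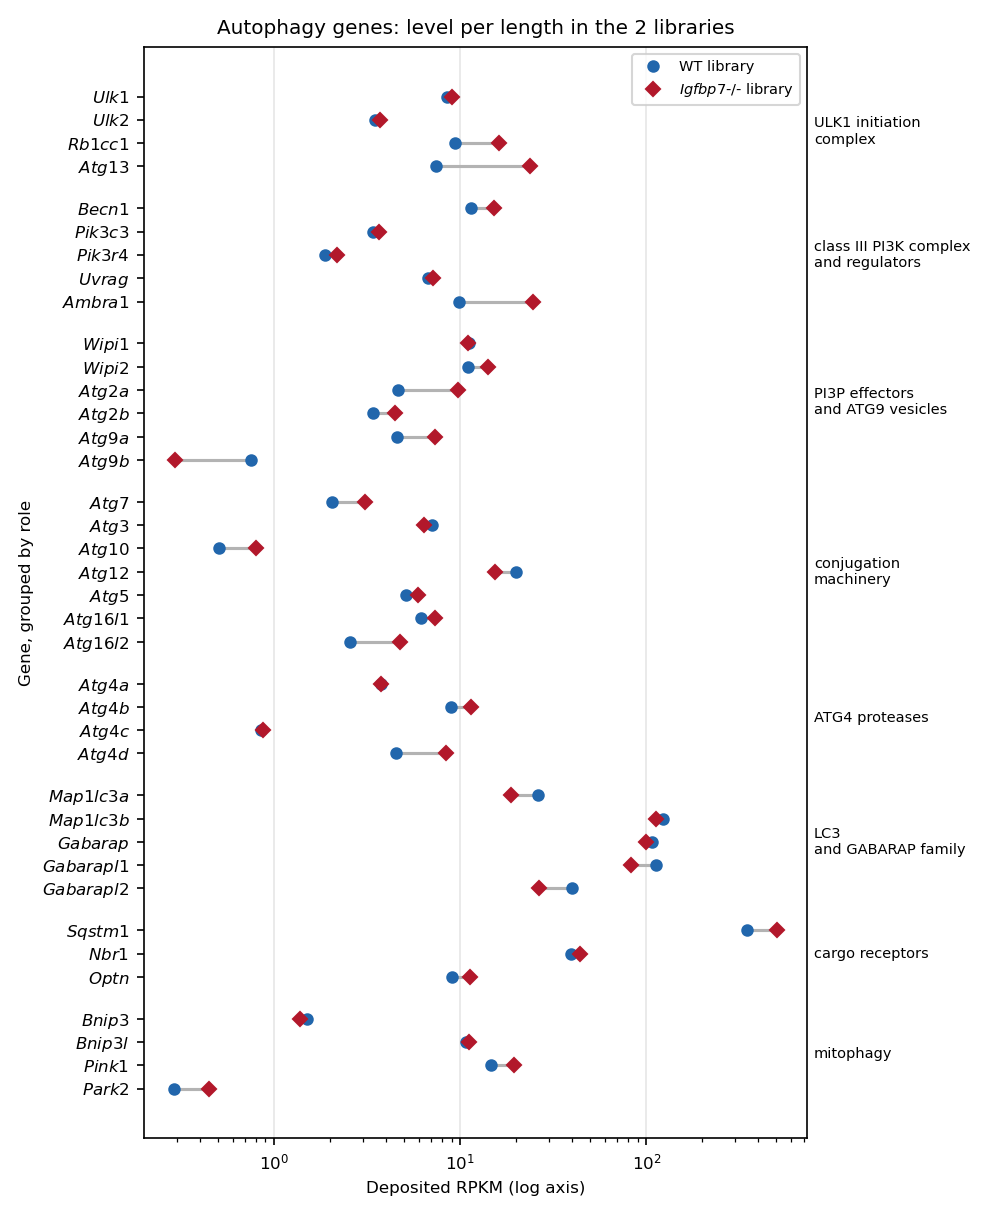
Deposited RPKM (log axis) of the 38 autophagy genes in the WT library (circles) and the *Igfbp7*-/- library (diamonds), grouped by role. *Sqstm1* is highest in both libraries (348 and 504 RPKM), *Map1lc3b*, *Gabarapl1* and *Gabarap* follow, and *Park2*, *Atg9b*, *Atg10* and *Atg4c* lie below 1 RPKM.

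Among the cargo receptors, *Sqstm1* was the most abundant gene of the whole list, at percentile 99.3 (WT) and 99.6 (*Igfbp7*-/-) of all genes per length. It encodes p62, which carries ubiquitinated proteins into the autophagosome and is itself degraded there. *Sqstm1* (chr11:50012868-50024329) had 696 RPM (23903 reads) in the WT library and 1008 RPM (35285 reads) in the *Igfbp7*-/- library, for a log2 ratio of 0.53 (0.50 to 0.57). At this depth the interval lay wholly between a ratio of 1 and 1.5. *Nbr1*, a related receptor, had 174 and 197 RPM (0.17, 0.10 to 0.24), and *Optn*, a receptor for bacteria and mitochondria, had 21.8 and 27.3 RPM (0.32, 0.13 to 0.52). All 3 receptors thus had ratios above 1 by deposited RPM and none passed the threshold. The ratio of *Nbr1* depended on the processing, with a log2 ratio of 0.03 without the 20 genes with the highest RPM and of 0.00 when centred on genes of similar length. That of *Sqstm1* was 0.39 without those 20 genes. It was 0.72, past the threshold, when RPM was scaled to reads on the listed genes.

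Of the mitophagy genes none passed the threshold by deposited RPM either. With RPM scaled to reads on the listed genes, *Pink1* (log2 ratio 0.61) and *Park2* (0.75) passed it. *Pink1*, the kinase that marks damaged mitochondria, had 34.5 RPM (1184 reads) in the WT library and 46.1 RPM (1615 reads) in the *Igfbp7*-/- library, for a log2 ratio of 0.42 (0.27 to 0.58). Its partner *Park2*, the ubiquitin ligase Parkin, was close to the minimum of the comparison, with 0.93 RPM (32 reads) and 1.43 RPM (50 reads). Its log2 ratio of 0.57 had an interval of -0.35 to 1.62. The receptors *Bnip3l* and *Bnip3*, which sit on the mitochondrial outer membrane and are known to respond to low oxygen, differed little between the libraries. *Bnip3l* had 34.6 and 36.1 RPM (0.06, -0.10 to 0.22) and *Bnip3* 91 and 85 reads (2.65 and 2.43 RPM; -0.12, -0.76 to 0.51). Per length *Bnip3l* (10.7 and 11.2 RPKM) was above *Bnip3* (1.51 and 1.38 RPKM) in both libraries.

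The ratios followed gene length, in this list and in the libraries as a whole. Over the 8168 genes with at least 10 RPM and a length, the median log2 ratio was -0.23 in the shortest of 10 equal length groups (up to 1.31 kb) and 0.32 in the longest (from 6.67 kb), and Spearman's rho of ratio and length was 0.185. These genes share the same 2 libraries and are not independent. Over the 31 members with at least 10 RPM rho was 0.525. The Spearman correlation of ratio and GC content was 0.374 over the same 31 members and 0.032 over the 7763 genes with a value. The 5 LC3 and GABARAP genes were 0.65 to 1.77 kb long, and *Rb1cc1*, *Atg2a* and *Ambra1* were 7.05, 6.34 and 5.33 kb long. After the median of its own length group had been subtracted, *Atg13* was at 1.57, *Ambra1* at 1.14, *Atg2a* at 0.88, *Atg16l2* at 0.88 and *Atg4d* at 0.86, so these stayed past 1.5 times. *Atg10*, with only 28 and 45 reads in WT and *Igfbp7*-/-, was at 0.76 and also stayed past it. *Rb1cc1* was at 0.48 and *Atg9a* at 0.54 and no longer passed. *Gabarapl2*, *Gabarapl1* and *Map1lc3a* were at -0.35, -0.29 and -0.26, and *Map1lc3b* and *Gabarap* at 0.05 and 0.13. What sets the relation with length was not tested.

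**Figure D4:**
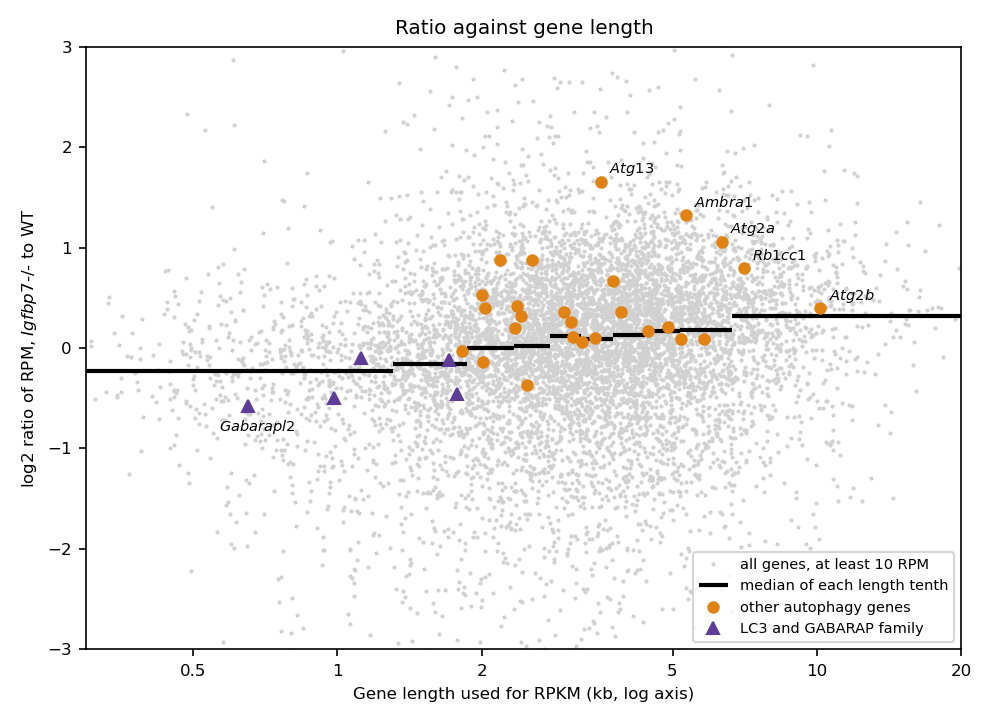
Log2 ratio of RPM, *Igfbp7*-/- to WT, against the gene length behind the RPKM (kb, log axis), for genes that reached 10 RPM in either library. Grey points are all genes (98 lie outside the axes), black lines the median of each of 10 length groups, circles the members and triangles the LC3 and GABARAP family. The medians run from -0.23 to 0.32 with length, and *Atg13*, *Ambra1* and *Atg2a* lie well above the median of their group.

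Other genes around the pathway, in 5 lists written by role, are set beside the 21.4% of all genes that were higher and the 23.0% that were lower. Of 12 further autophagosome formation genes with at least 1 RPM, 3 were higher and none was lower, with a median log2 ratio of 0.16. *Rab33b*, a small GTPase that binds Atg16l1, had 10.9 and 22.8 RPM (1.06) in WT and *Igfbp7*-/-, and *Wdr45*, a relative of the WIPI proteins, had 12.0 and 20.4 RPM (0.77). *Sh3glb1* (209 and 144 RPM, -0.54) and *Nrbf2* (12.2 and 10.4 RPM, -0.23) had the lowest ratios. Of 15 fusion genes, 3 were higher and 1 lower, with a median of 0.12. Among the SNAREs of the list, *Vamp8* had 23.8 and 43.0 RPM (0.85) and *Snap29* 44.5 and 26.8 RPM (-0.73). *Stx17* (9.44 and 9.37 RPM, -0.01) and *Ykt6* (66.0 and 72.0 RPM, 0.12), added after their values were seen, stayed within 1.5 times. *Vps33a*, a subunit of the tethering complex HOPS, had 11.8 and 21.8 RPM (0.88), and *Tecpr1*, another tether, had 12.3 and 8.57 RPM (-0.52).

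Among genes that act upstream, the nutrient-sensing list had 4 of 22 genes higher and none lower, with a median log2 ratio of 0.13. *Tsc1*, an inhibitor of mTORC1, had 32.7 RPM (1123 reads) in the WT library and 71.0 RPM (2487 reads) in the *Igfbp7*-/- library, for a log2 ratio of 1.12 (0.97 to 1.26), and *Prkab1*, a subunit of the energy sensor AMPK, had 48.6 and 99.8 RPM (1.04, 0.92 to 1.16). *Rheb*, the activator of mTORC1, and *Sesn1* had the lowest ratios of those that reached 10 RPM (-0.30 and -0.19). Of 10 transcription factors, 1 was higher and 2 were lower, with a median of 0.25. *Tfeb* and *Tfe3* were not matched under these symbols, and other symbols for them were not searched. *Ppara* and *Ppargc1a* did not reach 1 RPM. *Foxo3*, a forkhead factor known to act on autophagy genes, had 37.2 RPM (1277 reads) in the WT library and 120.4 RPM (4217 reads) in the *Igfbp7*-/- library, for a log2 ratio of 1.69 (1.57 to 1.82). *Mitf* came next with 10.8 and 14.9 RPM (0.46). The lower factors were *Epas1*, which encodes HIF2α and is abundant in endothelial cells (294 and 179 RPM, -0.71), and *Nfe2l2*, which encodes NRF2 (202 and 135 RPM, -0.59).

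Of 13 further genes of selective autophagy, 2 were higher and none was lower, with a median log2 ratio of 0.28. *Usp30*, a deubiquitinase that opposes Parkin, had 5.91 and 12.3 RPM (1.05) in WT and *Igfbp7*-/-, and *Mfn2*, a mitochondrial fusion protein, had 22.8 and 37.8 RPM (0.73). *Hdac6* (21.6 and 15.6 RPM, -0.47) and the receptor *Tax1bp1* (328 and 304 RPM, -0.11) were at the low end.

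**Figure D5:**
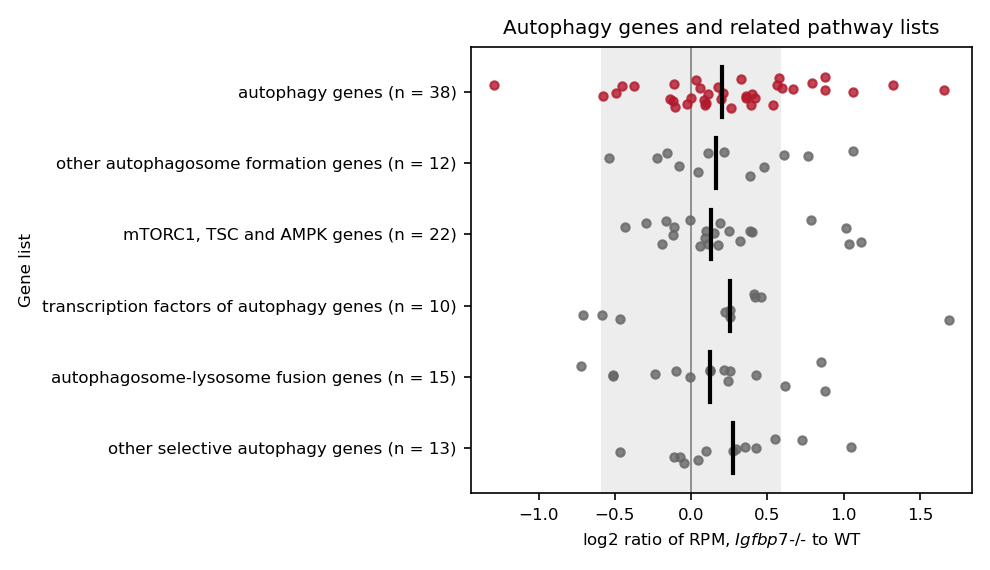
Log2 ratio of RPM, *Igfbp7*-/- to WT, of the 38 autophagy genes (red) and of 5 lists of related genes (grey), each point a gene that reached 1 RPM and spread vertically for display. Black bars are list medians (0.20 for the autophagy genes, 0.12 to 0.28 for the other lists), and the grey band is the range within 1.5 times.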

How the data were processed

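Poly(A) RNA of lineage-depleted MECs was sequenced on a SOLiD instrument, 1 library per genotype. According to the methods, the authors mapped paired-end reads with a Bowtie pipeline in GeneSifter and filtered mitochondrial, ribosomal and small nuclear RNA, although ribosomal RNA genes are still listed. The submitters' processing notes name Bowtie 0.12.3, SAMtools 0.1.15 and mm9, whereas the methods name a human build. For each gene the authors deposited a raw count of reads. The deposited RPM is that count per 1000000 mapped reads of the library, and the deposited RPKM is the RPM per kb of a gene length set by the authors. The denominator includes reads outside the listed genes, so a larger share of such reads lowers every RPM. The 50 rows without a symbol (0.0495 and 0.0670% of the reads) were left out.

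Ratios were computed from RPM with a pseudocount of 0.1, which understates the change of low genes. Intervals were computed on reads divided by 2, since 75.8 and 74.1% of low counts were even. The members, the role groups and the lists were chosen with earlier results of these data known. All members could be named, and in each other list, the 2 genes at either end of its ratios that reached 10 RPM. No test between genotypes was made. Scripts were tested on simulated data. The alternatives were other pseudocounts (1 and 0.01 RPM), minimums, scalings (median centring, without the 20 highest genes, reads on listed genes, edgeR 4.0.16 TMM, DESeq2 1.42.0 size factors), RPKM, a threshold of 2 and, added after seeing the data, centring by gene length. Python 3.11.15 with pandas 2.3.3 and scipy 1.17.1 was used.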

Additional observations from a re-analysis of the deposited data

How the results depend on the processing

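No paired analysis was possible because each genotype had 1 library, and for the same reason no library could be left out. The count of higher members, 8 by the deposited RPM, was 3 with a ratio threshold of 2 (*Atg13*, *Ambra1* and *Atg2a*), where 9.64% of all genes were higher, and 6 to 12 under all other alternatives. The 6 without the 20 genes with the highest RPM and the 12 when RPM was scaled to reads on the listed genes stood beside 16.6% and 30.3% of all genes. The count of lower members, 1 by the deposited RPM, was 0 with a minimum of 10 RPM, which removes *Atg9b* (20.4% of all genes lower). It was 2 with ratios centred on the median of all genes and 2 with TMM, where *Gabarapl2* joined *Atg9b* (24.1% and 23.7% of all genes). It was 4 without the 20 genes with the highest RPM, where *Map1lc3a* and *Gabarapl1* also joined (27.5% of all genes). The median log2 ratio of the members, 0.20, was 0.060 without those 20 genes and was 0.39 when RPM was scaled to reads on the listed genes. These 2 scalings moved the median of all genes by -0.14 and 0.19, so the members moved with all genes. Of all genes past the threshold, 48.2% were higher by the deposited RPM, 37.6% without the 20 genes and 62.2% with the reads on listed genes. *Atg13*, *Ambra1* and *Atg2a* were higher under all 13 alternatives and *Atg9b* was lower under the 12 that kept it. No called gene changed direction under any alternative. Depth limits *Atg10*, *Park2*, *Bnip3*, *Atg4c* and *Atg9b*, each with at most 101 reads in a library.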
